A study of Mus musculus with 18 samples.

Results

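The aryl hydrocarbon receptor axis was followed through 5 genes in the livers of 18 mice: the cytochrome P450 genes Cyp1a1 and Cyp1a2, the ADP-ribosyltransferase gene Tiparp, the receptor gene Ahr and the gene of its dimerization partner, Arnt. Members were the probe sets whose platform annotation names exactly 1 of these symbols, which gave 12 of the 45101 probe sets on the arrays and 5 of 18193 genes with a probe set of their own. The probe set with the highest mean over all 18 arrays stood for each gene. All 5 genes passed the filter on dim signals (above the median of the array in at least 3 of 18 arrays) and were tested among 12169 genes. Cyp1a1 passed with exactly 3 arrays, those of the group in which it was high, so its passing carries no information of its own.

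All animals were female mice of the hybrid B6C3F1 strain, aged 5 weeks when exposure began and 18 weeks when killed, after 13 weeks of treatment, and each array carried liver RNA of 1 animal. The feed groups, treated 7 days a week, received 1,5-naphthalenediamine at 2000 ppm, N-(1-naphthyl)ethylenediamine at 2000 ppm (supplied as the dihydrochloride), pentachloronitrobenzene at 8187 ppm, or untreated chow as the feed control. The gavage groups, dosed 5 days a week with 5 ml/kg of corn oil, received 2,3-benzofuran at 240 mg/kg or the oil alone. The labels class 1,5-naphthalenediamine and 2,3-benzofuran as positive for liver tumours and the other chemicals as negative, and the series aimed at expression markers for such tumours. Only 1 dose and 1 time were used for each chemical.

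In an unstimulated cell the aryl hydrocarbon receptor rests in the cytosol with chaperones. On binding a ligand, often a planar aromatic compound, it enters the nucleus, pairs with ARNT and binds response elements next to its target genes. Cyp1a1 is the classic target and is nearly silent in unexposed liver, whereas Cyp1a2, its neighbour on the chromosome, is transcribed constitutively in hepatocytes, mostly near the central vein, and oxidizes aromatic amines. Tiparp is a further target whose product dampens the receptor in a feedback loop.

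The genes of the CYP1A pair lie head to head on chromosome 9 of GRCm38.p6, with Cyp1a2 at chr9:57676937-57683655 and Cyp1a1 at chr9:57687928-57703824. The start sites used here stand 13958 bases apart on opposite strands. Tiparp spans chr3:65528447-65555518, Arnt chr3:95434367-95497240 and Ahr chr12:35497979-35534989. RefSeq promoter windows of this build matched 4 of the 5 genes (Cyp1a1, Cyp1a2, Tiparp and Arnt). The 200 bases before the start site are shown for the 3 genes whose signals rise in some group and that are textbook targets of the receptor, so that the core letters of its response element and the TATA letters can be seen. Capitals mark GCGTG on either strand (CACGC when it lies on the other strand) and TATAAA on the gene's own strand. Cyp1a1 is given at chr9:57697413-57697612 on the plus strand, Cyp1a2 at chr9:57683656-57683855 on the minus strand and Tiparp at chr3:65528247-65528446 on the plus strand.
Cyp1a1: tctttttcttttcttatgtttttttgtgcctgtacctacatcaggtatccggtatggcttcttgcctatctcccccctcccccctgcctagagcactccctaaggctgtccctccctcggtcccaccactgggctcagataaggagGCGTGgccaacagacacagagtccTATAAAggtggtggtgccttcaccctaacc
Cyp1a2: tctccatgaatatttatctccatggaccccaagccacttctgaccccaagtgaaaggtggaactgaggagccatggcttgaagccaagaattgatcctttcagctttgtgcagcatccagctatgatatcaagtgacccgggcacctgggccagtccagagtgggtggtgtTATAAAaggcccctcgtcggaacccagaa
Tiparp: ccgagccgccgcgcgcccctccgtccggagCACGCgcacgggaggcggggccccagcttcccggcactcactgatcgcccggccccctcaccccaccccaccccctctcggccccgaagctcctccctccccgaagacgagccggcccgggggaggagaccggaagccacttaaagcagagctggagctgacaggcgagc

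The Cyp1a1 window held GCGTG beginning 54 bases before its start site and TATAAA beginning 30 bases before it. That of Cyp1a2 held TATAAA 29 bases before the start and no GCGTG in the 300 bases searched (250 before to 50 after the start). Tiparp had no TATAAA in its window and had the core on the reverse strand, beginning 170 bases before the start, in sequence of 73.7% G and C. Arnt had GCGTG 29 bases before its start. None of the 4 windows held the longer TNGCGTG, which contains the core. Among 32851 mouse windows of the same length, 32.4% held GCGTG on either strand, 5.1% held TNGCGTG on either strand and 8.3% held TATAAA on the gene's strand. These are matches of letters. Elements farther upstream were not searched.

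Values are log2 signals as deposited. The median of an array ranged from 4.25 to 4.35, and a gene whose group mean fell under 4.25 is called under background here. The typical tested gene shifted by 0.175 with 1,5-naphthalenediamine. The same shift was 0.155 with N-(1-naphthyl)ethylenediamine, 0.148 with pentachloronitrobenzene, 0.109 with 2,3-benzofuran and 0.0387 in corn oil against feed control. Changes of genes are therefore given on the log2 scale relative to that shift, with the standard error of the limma model and n = 3 per group, whereas calls (adjusted p under 0.05 over all tested genes) use the deposited scale. Centring each array on its median tested gene is the alternative that removes the shift, and calls under it are named centred. RNA integrity numbers averaged 7.83 ± 0.231 (SD, n = 3) in the N-(1-naphthyl)ethylenediamine group and 8.90 ± 0.173 in the feed control. They averaged 8.83 ± 0.0577 with 1,5-naphthalenediamine and 8.53 ± 0.231 with pentachloronitrobenzene. The gavage groups averaged 8.97 ± 0.586 with 2,3-benzofuran and 8.33 ± 0.808 in corn oil controls, whose animal 24 had the lowest number, 7.4. The beta-actin 3' minus 5' difference, a measure of how intact the transcripts were, averaged 1.60 ± 0.215 with N-(1-naphthyl)ethylenediamine and 0.943 ± 0.0485 in the feed control. It averaged 1.25 ± 0.453 with 1,5-naphthalenediamine, where animal 4 had 1.75, and 1.00 to 1.04 in the remaining groups.

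Hepatocyte markers (8 genes, among them albumin) had group means of 12.8 to 13.0, among the brightest signals of the arrays. With 1,5-naphthalenediamine 1 of them was called higher, and with 2,3-benzofuran 2 were lower, while centred calls were 6 and 5 lower. Of all tested genes, 8.41% and 7.58% were called lower with these chemicals, or 24.9% and 21.5% when centred. The macrophage list (10 genes) lay between 7.64 with 1,5-naphthalenediamine and 8.23 in corn oil controls, with 2 genes called lower with 1,5-naphthalenediamine and 4 with 2,3-benzofuran (centred 7 and 9), sinusoidal endothelium (7 genes) between 6.87 and 7.10, and stellate cells (7 genes) between 6.89 and 7.32. Cholangiocyte and lymphocyte markers, with 3 tested genes each, had means of 4.65 to 5.07 and 4.74 to 5.07. In whole liver, fewer cells of a type and less RNA per cell cannot be told apart.

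**Figure D1:**
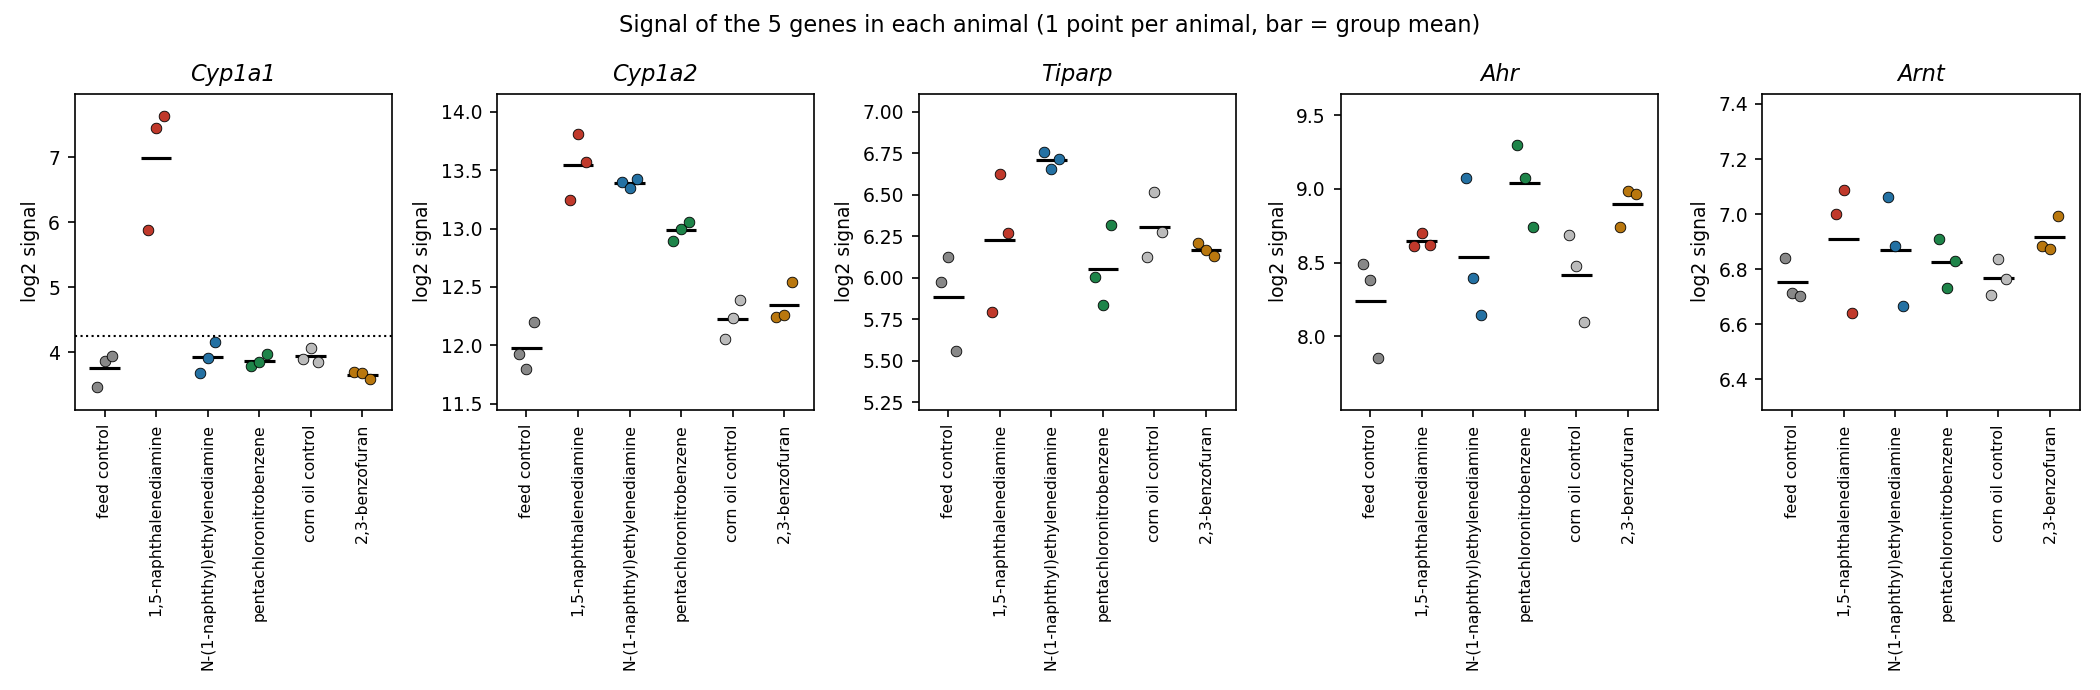
Log2 signal (vertical axis, separate range per gene) of the 5 genes in each of 18 animals, grouped by treatment; points are animals, bars are group means and the dotted line in the Cyp1a1 panel is the lowest array median, 4.25. Cyp1a1 lies above that line in the 3 animals given 1,5-naphthalenediamine, at 5.88 to 7.63, and under it in the other 15, while Cyp1a2 is high in all groups and highest in the 3 groups given chemicals in feed.

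Cyp1a1, which oxidizes polycyclic aromatic hydrocarbons, was measured above background only in the 1,5-naphthalenediamine group. Its log2 signals there were 5.88 in animal 2, 7.46 in animal 4 and 7.63 in animal 5 (mean 6.99 ± 0.966, SD). The feed controls gave 3.47, 3.87 and 3.95. All 3 exposed animals lay above every control, and animal 2 stood well below the other two. The corn oil controls read 3.90, 4.07 and 3.85, and the 2,3-benzofuran animals 3.70, 3.68 and 3.59. The N-(1-naphthyl)ethylenediamine animals had signals of 3.69, 3.91 and 4.16, and with pentachloronitrobenzene 3.79, 3.85 and 3.98. These 5 groups all had means under the background line, so their order has no meaning. Against the feed control the fitted change with 1,5-naphthalenediamine was 3.05 ± 0.291 (adjusted p = 8.22e-07). As the control was dim, the measured rise is a bound. For this, each control array was set to the higher of its own signal and its array median (mean 4.33). Cyp1a1 was then at least 6.30-fold higher on the deposited scale. This bound, like those given below, allows for the dim group only and not for the spread between animals. Only 1 probe set carried this gene, and animal 2, the lowest, had the same RNA integrity number, 8.8, as animal 5.

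Cyp1a2, which hydroxylates arylamines and caffeine, was among the brightest probe sets of the array, with a mean above 99.7% of all of them. Feed controls gave 11.93, 11.80 and 12.20 (mean 11.98 ± 0.204) and corn oil controls 12.05, 12.24 and 12.39 (12.23 ± 0.169). These control groups overlapped, and their difference of 0.213 ± 0.126 was not called (adjusted p = 0.554). The animals given 1,5-naphthalenediamine had 13.24, 13.81 and 13.57 (13.54 ± 0.283). Those given N-(1-naphthyl)ethylenediamine had 13.40, 13.34 and 13.43 (13.39 ± 0.0428), and those given pentachloronitrobenzene 12.89, 13.00 and 13.06 (12.98 ± 0.0846). Every animal of these 3 groups lay above every control animal of either kind. The 2,3-benzofuran animals, at 12.24, 12.26 and 12.54 (12.35 ± 0.168), overlapped with their corn oil controls.

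Relative to all tested genes, Cyp1a2 rose 2.62-fold with 1,5-naphthalenediamine (log2 change 1.39 ± 0.126, 95% interval 1.12 to 1.65, adjusted p = 2.23e-07). It rose 2.39-fold with N-(1-naphthyl)ethylenediamine (1.26 ± 0.126, 0.994 to 1.52, adjusted p = 1.72e-05) and 1.81-fold with pentachloronitrobenzene (0.860 ± 0.126, 0.594 to 1.13, adjusted p = 9.87e-05). These comparisons share the feed controls. With 2,3-benzofuran the change was 0.0109 (interval -0.255 to 0.276, adjusted p = 0.489), so a rise beyond 0.276 on the log2 scale lay outside the interval. When an index of circadian clock genes entered the fit this value became 0.339 and was called (adjusted p = 0.017). The signals reached 13.81, near the highest value of the deposited table, 14.66, and whether the brightest arrays were compressed was not tested.

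Tiparp had 3 probe sets, and the brightest of them rose with 1 chemical. Its feed controls were 5.98, 6.13 and 5.56, and the N-(1-naphthyl)ethylenediamine animals were 6.76, 6.66 and 6.72, all above the controls. The change was 0.671 ± 0.181 (1.59-fold, adjusted p = 0.00423). This call did not pass with RNA integrity as a covariate (0.528, adjusted p = 0.113), with the beta-actin difference (0.323, adjusted p = 0.271), with the clock gene index (0.377, adjusted p = 0.113), with the 18S ribosomal RNA signal (0.542, adjusted p = 0.056) or without the 5 arrays highest in 18S signal (0.693, adjusted p = 0.0791). Those RNA measures differ between the groups, as given above, and their part in the result was not tested beyond these fits. It kept its call when any 1 of the 6 arrays was left out (adjusted p up to 0.027).

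In the other groups Tiparp overlapped with its controls or did not pass. The 1,5-naphthalenediamine animals, in which Cyp1a1 was high, gave 5.79, 6.63 and 6.27 (change 0.167 ± 0.181, adjusted p = 0.135), and animal 2 was the lowest here as it was for Cyp1a1 and Cyp1a2. The call appeared without animal 2 (0.393, adjusted p = 0.0197), and without animal 4 the value was -0.0126 (adjusted p = 0.55). It also appeared when the most variable probe set stood for the gene (0.493, adjusted p = 0.0356) or probe sets of shared sequence were left out (0.494, adjusted p = 0.032). Pentachloronitrobenzene animals had 6.01, 5.84 and 6.32, 2,3-benzofuran animals 6.21, 6.17 and 6.13, and corn oil controls 6.13, 6.52 and 6.27. The change with 2,3-benzofuran was -0.244 ± 0.181 (adjusted p = 0.59) and with pentachloronitrobenzene 0.0209 ± 0.181 (adjusted p = 0.497).

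The Tiparp probe sets did not move alike. On 1452160_at the change was 0.690 ± 0.235 with N-(1-naphthyl)ethylenediamine (adjusted p = 0.0164 over all probe sets) and 0.487 ± 0.235 with 1,5-naphthalenediamine (adjusted p = 0.0368). On 1452161_at both had the opposite sign, at -0.428 ± 0.226 and -0.489 ± 0.226, and neither was called (adjusted p = 0.384 and 0.284). Corn oil controls lay above feed controls without overlap on 1452160_at (0.667 ± 0.235) and 1452161_at (0.495 ± 0.226). Neither of these differences between controls was called (adjusted p = 0.362 and 0.507). On 1452160_at the N-(1-naphthyl)ethylenediamine animals, at 5.34 to 5.83, overlapped with the corn oil controls, at 5.24 to 5.78. The mean of the 3 probe sets changed by 0.353 with N-(1-naphthyl)ethylenediamine (adjusted p = 0.0476). Which transcripts each probe set reads was not examined here.

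**Figure D2:**
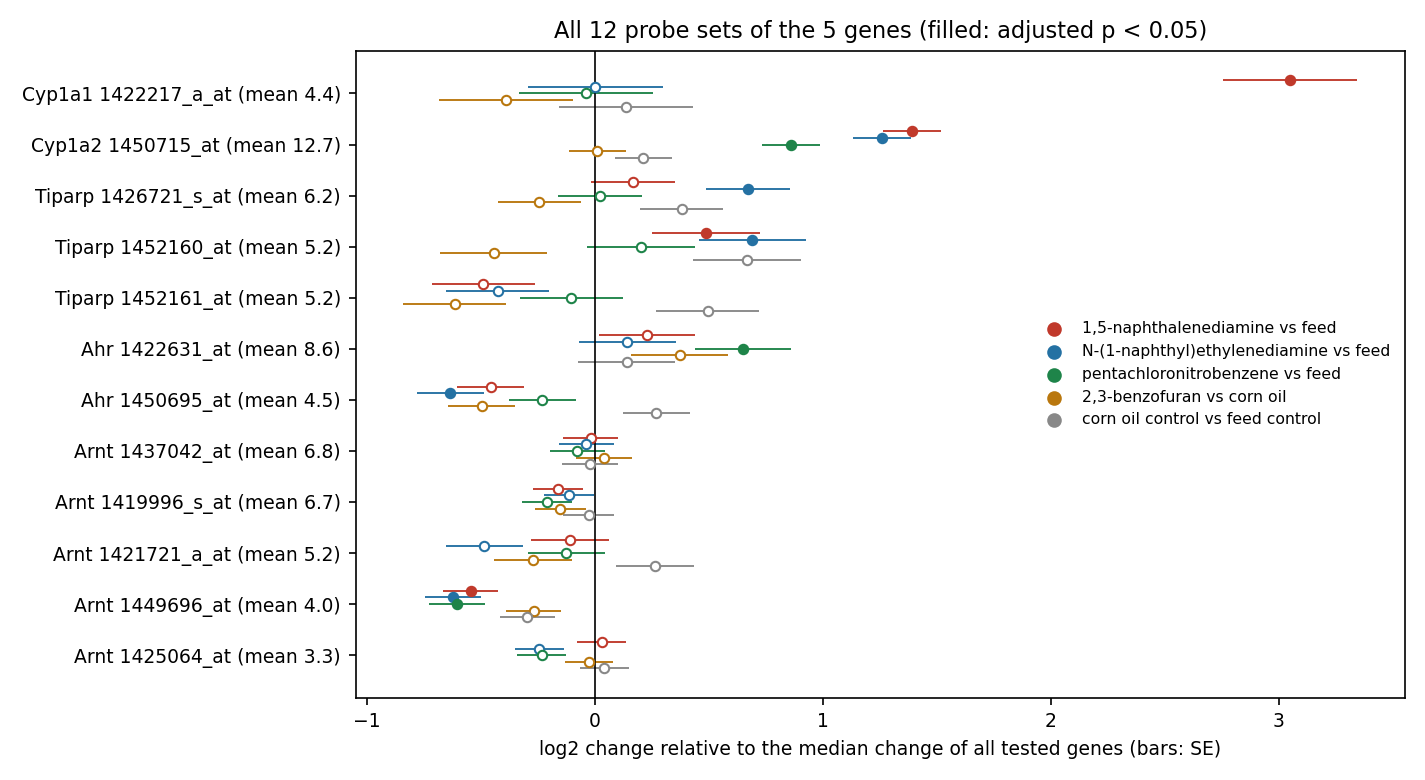
Log2 change relative to the median of all tested genes (horizontal axis) for each of the 12 probe sets in 5 comparisons, with standard errors as bars; filled points have an adjusted p under 0.05 over all probe sets, and the mean log2 signal stands beside each probe set. Tiparp 1452160_at lies at 0.690 and Tiparp 1452161_at at -0.428 with N-(1-naphthyl)ethylenediamine. The dim Ahr probe set 1450695_at lies opposite to the bright one with each chemical and on the same side between the control groups.

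Ahr encodes the ligand-binding receptor itself and was clearly above background on its main probe set. Feed controls gave 8.49, 8.38 and 7.85, and pentachloronitrobenzene animals gave 9.30, 9.08 and 8.74, with no overlap. The change was 0.650 ± 0.210 (1.57-fold, adjusted p = 0.0189). Genes within 0.5 of its level moved by a median of 0.213 on the deposited scale, on which Ahr moved by 0.798. The call did not pass after quantile normalization (adjusted p = 0.0733), when centred (adjusted p = 0.051), with only the compared groups fitted (adjusted p = 0.0523), with probe sets averaged (0.226, adjusted p = 0.0931), or without exposed animal 16 (0.087), exposed animal 18 (0.056) or feed control 29 (0.108), where the bracketed values are adjusted p.

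Elsewhere Ahr lay higher than its controls without passing the test. The 2,3-benzofuran animals had 8.74, 8.99 and 8.97 against 8.69, 8.48 and 8.10 in corn oil controls, a change of 0.372 ± 0.210 without overlap (adjusted p = 0.0873). This difference was called with hepatocyte centring, array weights, only the compared groups or pooled controls (adjusted p = 0.0166 to 0.0268). With 1,5-naphthalenediamine the signals were 8.61, 8.70 and 8.62, again without overlap (0.228 ± 0.210, adjusted p = 0.13). In N-(1-naphthyl)ethylenediamine animals they ranged from 8.14 to 9.07 and overlapped with the controls (0.142 ± 0.210, adjusted p = 0.292), and with the clock gene index in the fit the value was 0.595 and was called (adjusted p = 0.0465). The dim probe set 1450695_at, with group means of 4.07 to 4.86, fell with N-(1-naphthyl)ethylenediamine (-0.636 ± 0.147, adjusted p = 0.0251) to a mean under the background line. With pentachloronitrobenzene its change was -0.232 ± 0.147 (adjusted p = 0.708), opposite in sign to that of the main probe set.

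Arnt, whose product also pairs with hypoxia-inducible factors, varied least of the 5 genes. Its group means ran from 6.75 in feed controls to 6.92 with 2,3-benzofuran, and single animals from 6.64 to 7.09. Relative changes lay between -0.0770 and 0.0389, with adjusted p from 0.306 to 0.977, and the 95% interval that reached farthest from 0 ended at -0.329 (pentachloronitrobenzene). The 2,3-benzofuran animals did not overlap with the corn oil controls, and the other 4 comparisons overlapped. Of its 5 probe sets, 1449696_at and 1425064_at failed the filter. The first of these was called lower with all 3 feed chemicals (adjusted p = 0.0117 to 0.0252), from a feed control mean of 4.32 to means under the background line, and none of the other 4 was called in any comparison.

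**Figure D3:**
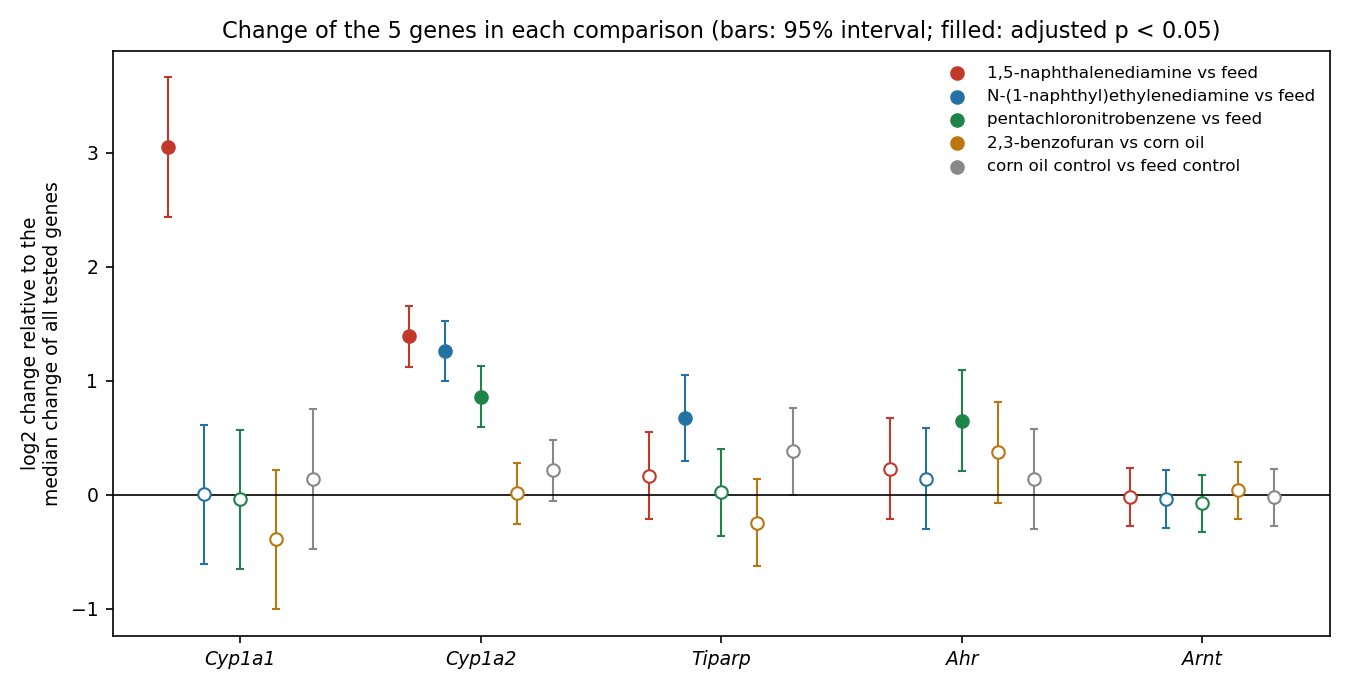
Log2 change of the 5 genes over that of the median tested gene (vertical axis) in 4 chemical comparisons and between the control groups; bars are 95% intervals and filled points have an adjusted p under 0.05. Cyp1a2 lies at 1.39, 1.26 and 0.860 with the 3 feed chemicals and at 0.0109 with 2,3-benzofuran, and Arnt lies between -0.0770 and 0.0389 throughout.

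Counted over the 5 genes, 2 rose with 1,5-naphthalenediamine (Cyp1a1 and Cyp1a2), where 31.5% of all tested genes were called higher and 8.41% lower. With N-(1-naphthyl)ethylenediamine 2 rose (Cyp1a2 and Tiparp), against 24.7% higher and 4.37% lower among all genes. With pentachloronitrobenzene 2 rose (Cyp1a2 and Ahr), or 1 when arrays were centred, against 14.6% higher and 3.87% lower. For 2,3-benzofuran limma called 0 of the 5, with 1 (Ahr) at an unadjusted p under 0.05, although 24.8% of genes were called higher and 7.58% lower. Between corn oil and feed controls 0 were called, 1 (Tiparp) had an unadjusted p under 0.05, 0.123% of all genes were higher, and limma called 0 genes lower (0%), with 254 lower at an unadjusted p under 0.05. A count of 2 in 5 is near the share of all genes with 1,5-naphthalenediamine and N-(1-naphthyl)ethylenediamine. Centring turned the split of all genes to 9.22% higher and 24.9% lower with 1,5-naphthalenediamine, 5.49% and 15.1% with N-(1-naphthyl)ethylenediamine, 2.56% and 13.4% with pentachloronitrobenzene and 11.2% and 21.5% with 2,3-benzofuran. Cyp1a1 with 1,5-naphthalenediamine, Cyp1a2 with all 3 feed chemicals and Tiparp with N-(1-naphthyl)ethylenediamine were called higher when centred too. Exposed and control arrays did not overlap for 3 members with 1,5-naphthalenediamine (46.5% of all genes), 3 with 2,3-benzofuran (49.2%; Cyp1a1 among them, under background in both groups), 2 with N-(1-naphthyl)ethylenediamine (38.2%) and 2 with pentachloronitrobenzene (38.2%). They overlapped for all 5 between the control groups, where 11.1% of genes did not.

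Comparing chemicals directly asks whether responses differ between them. 1,5-Naphthalenediamine carries its amino groups on the naphthalene ring and N-(1-naphthyl)ethylenediamine carries an ethylenediamine side chain on it, and both were given at 2000 ppm. Cyp1a1 differed between them, with 1,5-naphthalenediamine higher by 3.07 ± 0.291 in the fit (adjusted p = 3.96e-06), at least 6.45-fold on the deposited scale since the other group was under background, while 5.47% of all genes were called in that comparison. Cyp1a2 was not called different, at 0.154 ± 0.126 (95% interval -0.111 to 0.419, adjusted p = 0.536). Tiparp was lower with 1,5-naphthalenediamine by a value that did not pass (-0.479 ± 0.181, adjusted p = 0.132), although the 3 animals of each group did not overlap. For Ahr and Arnt the differences were 0.110 and 0.0425, with intervals of -0.331 to 0.551 and -0.210 to 0.295.

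Doses differed between the other feed chemicals. Against pentachloronitrobenzene, 1,5-naphthalenediamine was higher in Cyp1a1 (3.09 ± 0.291 in the fit, adjusted p = 2.93e-06, at least 6.47-fold on the deposited scale since the other group was under background) and Cyp1a2 (0.528 ± 0.126, adjusted p = 0.0154), and 4.03% of all genes were called. The Cyp1a2 difference did not pass without pentachloronitrobenzene animal 16 (adjusted p = 0.0800), 1,5-naphthalenediamine animal 4 (0.110) or animal 5 (0.0665). N-(1-naphthyl)ethylenediamine and pentachloronitrobenzene differed in 0 of the 5 genes by limma, with 3 at an unadjusted p under 0.05, and in 2.69% of all genes. Their Cyp1a2 signals did not overlap, with a difference of 0.373 ± 0.126 (adjusted p = 0.0961). In descending order the Cyp1a2 means were thus 1,5-naphthalenediamine, N-(1-naphthyl)ethylenediamine, pentachloronitrobenzene, 2,3-benzofuran, corn oil and feed control. The first and second overlapped, as did 2,3-benzofuran with corn oil and corn oil with feed control. Pentachloronitrobenzene overlapped with neither of its neighbours.

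The effect of 2,3-benzofuran over corn oil was set against each feed chemical's effect over feed control, across a difference in route, dose and vehicle. Its Cyp1a2 effect was smaller than that of 1,5-naphthalenediamine by 1.42 on the log2 scale (difference -1.42 ± 0.179, adjusted p = 0.000195). It was also smaller than those of N-(1-naphthyl)ethylenediamine (-1.26 ± 0.179, adjusted p = 0.000293) and pentachloronitrobenzene (-0.889 ± 0.179, adjusted p = 0.00799). With RNA integrity as a covariate the last 2 did not pass (adjusted p = 0.0642 and 0.0712), and with the clock gene index the difference from N-(1-naphthyl)ethylenediamine was -0.555 (adjusted p = 0.281). The Cyp1a1 effect differed between 2,3-benzofuran and 1,5-naphthalenediamine (-3.48 ± 0.412, adjusted p = 0.000143), with both gavage groups under background. Tiparp differed between 2,3-benzofuran and N-(1-naphthyl)ethylenediamine (-0.929 ± 0.256, adjusted p = 0.0333). That call was lost without 2,3-benzofuran animal 6, 8 or 10, N-(1-naphthyl)ethylenediamine animal 12 or 15, corn oil control 24 or 25, or feed control 29 (adjusted p up to 0.0988). It was also lost with RNA integrity (-0.701, adjusted p = 0.592), the beta-actin difference (-0.609, adjusted p = 0.319) or the clock gene index (-0.430, adjusted p = 0.753) in the fit, and with hepatocyte centring (adjusted p = 0.0976). Of all genes, 0.961%, 5.59% and 2.89% were called in these comparisons with 1,5-naphthalenediamine, N-(1-naphthyl)ethylenediamine and pentachloronitrobenzene.

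Within the animals, Cyp1a1 and Cyp1a2 did not form a single gradient. The 3 N-(1-naphthyl)ethylenediamine animals had Cyp1a2 signals of 13.34 to 13.43, within the 13.24 to 13.81 of the 1,5-naphthalenediamine animals, and Cyp1a1 under background. Because the animals fall into separate clusters, no pooled correlation between these genes is given. Within the 1,5-naphthalenediamine group, animal 2 had the lowest signal of Cyp1a1, Cyp1a2 and the brightest Tiparp probe set. Animal 4 had the highest signal of Cyp1a2 and of that Tiparp probe set. On Tiparp 1452161_at animal 4 was the lowest, at 4.46 against 4.74 in animal 2. On 1452160_at animal 5 was the highest, at 5.95 against 5.45 in animal 4.

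**Figure D4:**
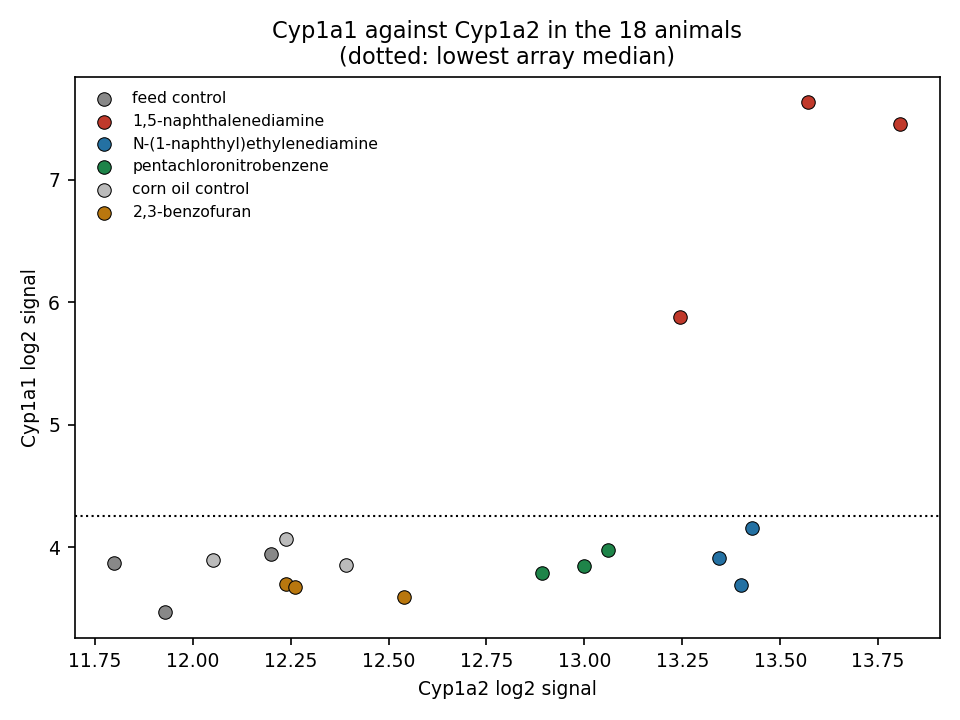
Cyp1a1 log2 signal (vertical axis) against Cyp1a2 log2 signal (horizontal axis) in 18 animals, coloured by group; the dotted line is the lowest array median, 4.25. The N-(1-naphthyl)ethylenediamine animals reach Cyp1a2 signals of 13.34 to 13.43 with Cyp1a1 at 3.69 to 4.16, whereas the 1,5-naphthalenediamine animals have Cyp1a1 at 5.88 to 7.63.

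Markers of pericentral hepatocytes, where Cyp1a2 is usually densest, were set beside its rise. The 9 listed genes, all tested, had mean signals of 8.60 with 1,5-naphthalenediamine, 8.92 with N-(1-naphthyl)ethylenediamine, 8.89 with pentachloronitrobenzene and 8.68 with 2,3-benzofuran, against 8.66 in feed and 8.68 in corn oil controls. With 1,5-naphthalenediamine 1 was called higher and 2 lower, where 31.5% and 8.41% of all tested genes were. The ammonium transporter gene Rhbg rose by 0.447 ± 0.140 (adjusted p = 0.00270). Glutamine synthetase, Glul, fell with a change of -0.463 ± 0.106 (adjusted p = 0.0387). Changes of the 9 genes in this comparison ran from -0.805 to 0.447, with a median of -0.282. With N-(1-naphthyl)ethylenediamine 1 was higher and with pentachloronitrobenzene 2 were, against 24.7% and 14.6% of all tested genes. Centred, 5 were lower and 1 higher with 1,5-naphthalenediamine, 1 was lower with N-(1-naphthyl)ethylenediamine and 0 were called with pentachloronitrobenzene. In the same order 24.9%, 15.1% and 13.4% of all tested genes were lower when centred, and 9.22% were higher with 1,5-naphthalenediamine. Cyp2e1, another pericentral P450, had group means of 13.67 to 13.79, and its changes of -0.0821, -0.0374 and -0.0575 with the 3 feed chemicals were not called (adjusted p = 0.231, 0.156 and 0.281), although centring called the first of them lower (adjusted p = 0.0261). The part of zonal markers in the Cyp1a2 rise was not tested.

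The genes whose signals were most like Cyp1a1 over the 18 arrays, among 2267 that varied with an SD of at least 0.3, were Scd2 (Pearson r = 0.966), Tnnc1 (0.906), Dusp14 (0.880), A830010M20Rik (0.879) and Gpx6 (0.865). The arrays share these groups, and the 3 of 1,5-naphthalenediamine set the coefficients, since Cyp1a1 was under background in the rest. Scd2, a stearoyl-CoA desaturase, averaged 5.93 there and 3.83 to 4.17 elsewhere. Dusp14 averaged 5.00 there and 3.98 to 4.22 elsewhere. Gpx6, a glutathione peroxidase, averaged 6.28 there and 4.01 to 4.45 elsewhere. Like Cyp1a1, Scd2 and Dusp14 had means under background in every group but that of 1,5-naphthalenediamine. The same 5 genes led over the 6 group means. For Cyp1a2 the leading genes over arrays were Pptc7 (r = 0.902), Card6 (0.893), Gas5 (0.885), Smim13 (0.884) and Timm10 (0.880). Over group means they were Gas5 (0.985), Snhg5 (0.982), Rps25 (0.979), Gm3715 (0.967) and Ifrd1 (0.966). Gas5, a host gene of small nucleolar RNAs, averaged 10.01 with 1,5-naphthalenediamine, 9.83 with N-(1-naphthyl)ethylenediamine, 9.76 with pentachloronitrobenzene, 9.49 with 2,3-benzofuran, 9.39 in corn oil and 9.24 in feed controls, the same order of groups as Cyp1a2. It was picked for its likeness to Cyp1a2 over these same group means, so the shared order is not a separate result.

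Other targets of the receptor were measured through 6 of 13 listed genes. The most specific of those left were all under background: Ahrr, the receptor's repressor, lay between 2.67 and 3.02 in every array, Cyp1b1 between 3.25 and 4.00, Aldh3a1 between 2.69 and 3.29 and Cyp2s1 between 3.63 and 4.12. Called higher were 4 of the 6 with 1,5-naphthalenediamine, 3 with 2,3-benzofuran, 3 with N-(1-naphthyl)ethylenediamine and 2 with pentachloronitrobenzene, and 1 fell with N-(1-naphthyl)ethylenediamine. Among all tested genes 31.5%, 24.8%, 24.7% and 14.6% were called higher in that order, or 9.22%, 11.2%, 5.49% and 2.56% when centred. Called lower were 8.41%, 7.58%, 4.37% and 3.87% of them, or 24.9%, 21.5%, 15.1% and 13.4% when centred. Centred, 3, 3, 0 and 2 of the 6 were higher in that order, and 1 was lower with each chemical but pentachloronitrobenzene. Their median changes were 0.431, 0.372, 0.124 and 0.163, where the median of all tested genes is 0 by construction. Nqo1, a quinone reductase that NRF2 also controls, rose by 1.90 ± 0.228 with 1,5-naphthalenediamine (adjusted p = 9.11e-06) and by 2.49 ± 0.228 with 2,3-benzofuran (adjusted p = 4.39e-07), in which neither Cyp1a gene was called. With pentachloronitrobenzene it rose by 0.982 ± 0.228 (adjusted p = 0.00560), and with N-(1-naphthyl)ethylenediamine by 0.602 ± 0.228 (adjusted p = 0.0208, and 0.105 when centred). This last call was lost without exposed animal 12 or feed control 28 or 29, with RNA integrity (0.578, adjusted p = 0.173) or 18S signal (0.564, adjusted p = 0.111) as a covariate, and with the beta-actin difference (0.0917, adjusted p = 0.649) or the clock gene index (0.0911, adjusted p = 0.498).

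Ugdh, which makes UDP-glucuronic acid and is likewise shared with NRF2, rose by 2.19 ± 0.143 with 1,5-naphthalenediamine, 2.17 ± 0.143 with 2,3-benzofuran and 0.825 ± 0.143 with pentachloronitrobenzene (adjusted p = 8.95e-09, 4.51e-09 and 0.000464). With N-(1-naphthyl)ethylenediamine, whose Cyp1a2 change was 1.26, its value was 0.0785 ± 0.143 (adjusted p = 0.223). Which regulator moved Nqo1 and Ugdh was not tested. Selenbp1, a selenium-binding protein, rose by 0.748 with 1,5-naphthalenediamine and 0.704 with 2,3-benzofuran (adjusted p = 8.49e-05 and 0.000223). Nqo1, Ugdh and Selenbp1 kept these calls with 1,5-naphthalenediamine and 2,3-benzofuran in all 18 other settings in which they were tested and in all 6 runs without 1 array. The gene of this list that fell with N-(1-naphthyl)ethylenediamine was Fgf21, a fasting hormone of the liver (-1.37 ± 0.378, adjusted p = 0.0239). Its call was lost without exposed animal 12 or 15 or feed control 28. It was called in 11 of 18 other settings. Those that lost it included the RNA integrity, beta-actin, 18S and clock covariates, robust moderation and pooled controls.

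**Figure D5:**
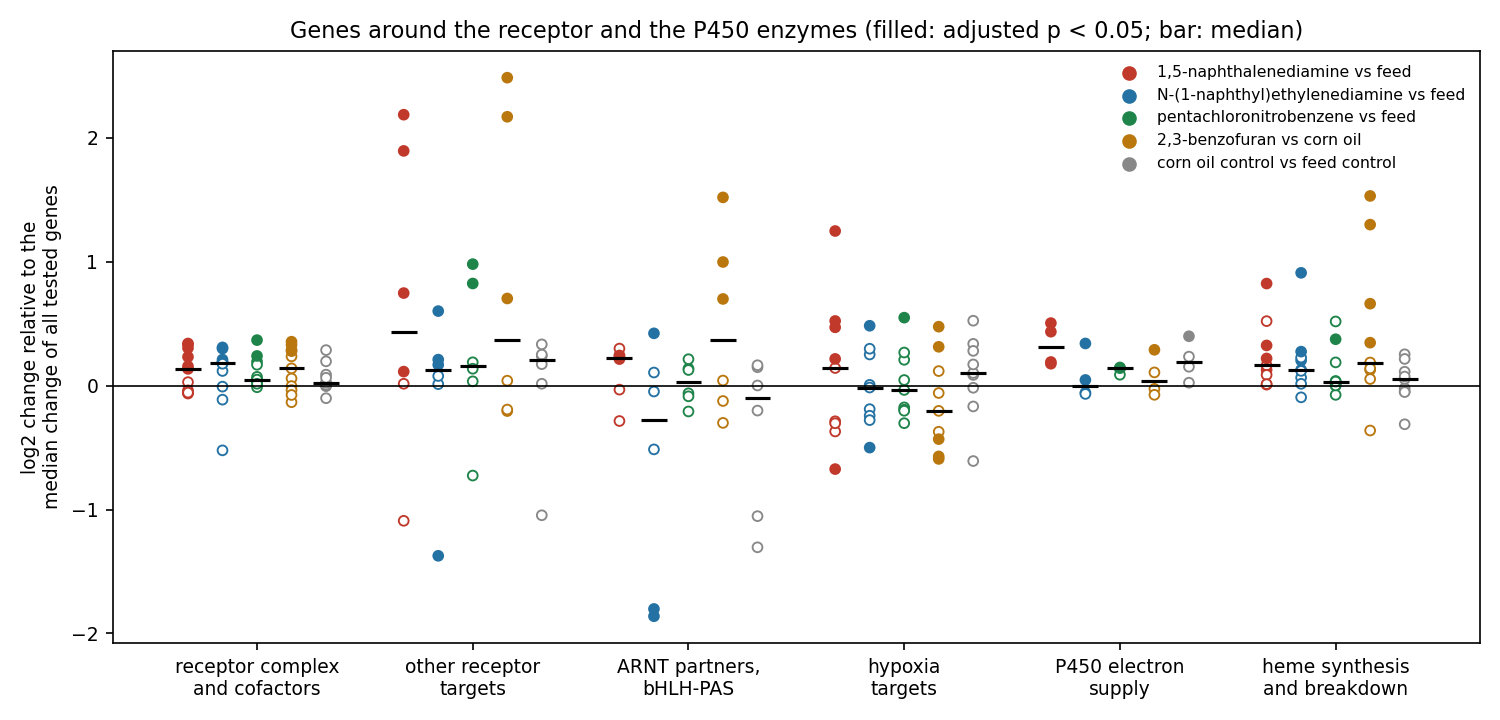
Log2 change relative to the median of all tested genes (vertical axis) for each tested gene of 6 lists around the receptor and the P450 enzymes, in 4 chemical comparisons and between the control groups; filled points have an adjusted p under 0.05 and black bars are list medians. Among the other receptor targets, Ugdh and Nqo1 stand at 2.19 and 1.90 with 1,5-naphthalenediamine and at 2.17 and 2.49 with 2,3-benzofuran.

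The receptor's chaperones and cofactors (11 of 18 listed genes tested) moved little. On the deposited scale 6 were called higher with 1,5-naphthalenediamine, 3 with 2,3-benzofuran, 6 with N-(1-naphthyl)ethylenediamine and 3 with pentachloronitrobenzene, but with arrays centred these became 1, 1, 0 and 0, with 1 lower for N-(1-naphthyl)ethylenediamine. In the same order 31.5%, 24.8%, 24.7% and 14.6% of all tested genes were called higher, or 9.22%, 11.2%, 5.49% and 2.56% when centred. With N-(1-naphthyl)ethylenediamine 15.1% of all tested genes were lower when centred. Relative medians of the list were 0.136, 0.140, 0.183 and 0.0492. Smarca4, the ATPase of a chromatin remodeller, rose by 0.334 ± 0.104 with 1,5-naphthalenediamine and 0.355 ± 0.104 with 2,3-benzofuran (adjusted p = 0.00148 and 0.00308). Hsp90aa1, a chaperone of the unliganded receptor, had changes of -0.0374, 0.330, -0.522 and 0.0158 with 1,5-naphthalenediamine, 2,3-benzofuran, N-(1-naphthyl)ethylenediamine and pentachloronitrobenzene. None was called on the deposited scale, and the third was called lower when centred (adjusted p = 0.0446). The P450 reductase gene Por was not analysed here.

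ARNT's other partners and related factors (6 of 12 tested) had no common direction, with 2 higher with 1,5-naphthalenediamine, 3 with 2,3-benzofuran, and 1 higher and 2 lower with N-(1-naphthyl)ethylenediamine. Centred, 2 were higher and 1 lower with 2,3-benzofuran, 2 were lower with N-(1-naphthyl)ethylenediamine, and 0 were called with 1,5-naphthalenediamine. With pentachloronitrobenzene limma called none under either scaling. Shares of all tested genes called higher on the deposited scale were 31.5% with 1,5-naphthalenediamine, 24.8% with 2,3-benzofuran, 24.7% with N-(1-naphthyl)ethylenediamine and 14.6% with pentachloronitrobenzene. Called lower were 8.41%, 7.58%, 4.37% and 3.87% in the same order. Centring made these shares 9.22%, 11.2%, 5.49% and 2.56% higher and 24.9%, 21.5%, 15.1% and 13.4% lower. Hif1a, the hypoxia-inducible subunit, changed by 0.215 ± 0.132 with 1,5-naphthalenediamine (adjusted p = 0.0263, and 0.379 when centred), a call lost without exposed animal 2 or 4 or feed control 28 or 29. It was called in 7 of 18 other settings, and the value was -0.596 with the most variable probe set (adjusted p = 0.146). The clock factor genes Arntl and Clock rose with 2,3-benzofuran by 1.52 and 0.700 (adjusted p = 0.00602 and 0.0117). Npas2 was called higher too (adjusted p = 0.0220, and 0.0535 when centred), from a corn oil mean of 3.73, under background, to 4.83, so that it was at least 1.35-fold higher on the deposited scale. The Npas2 call was lost without corn oil control 24 or 25 or exposed animal 6 or 8, and the Clock call without corn oil control 25. The feed control mean of Npas2, 4.74, lay near that of the 2,3-benzofuran animals, so the corn oil group was the low one here. Between the control groups no gene of this list was called. With both control groups pooled, Npas2 (0.464, adjusted p = 0.178) and Arntl (0.860, adjusted p = 0.0646) were not called with 2,3-benzofuran, while Clock was. With N-(1-naphthyl)ethylenediamine Arntl and Npas2 fell, with changes of -1.86 and -1.80 (adjusted p = 0.00657 and 0.00353), the latter from a mean of 4.74 to 3.09, under background, which makes it at least 1.36-fold lower on the deposited scale. Both these calls were lost with RNA integrity or the beta-actin difference as a covariate (adjusted p = 0.139 to 0.295). None of these clock calls passed with the clock gene index as a covariate, which contains these genes, and no hour of killing was used here. Arntl was not called in either comparison when probe sets of shared sequence were left out.

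Targets that hypoxia-inducible factors switch on with ARNT (9 of 10 tested) went both ways. With 1,5-naphthalenediamine 4 rose and 1 fell, led by Slc2a1, a glucose transporter, at 1.25 ± 0.219 (adjusted p = 0.000182), while Ldha, lactate dehydrogenase, fell by 0.673 ± 0.112 (adjusted p = 0.00272). With 2,3-benzofuran 2 rose and 3 fell, among them Vegfa at -0.591 ± 0.108 and Ldha at -0.571 ± 0.112 (adjusted p = 0.00297 and 0.00500). Under N-(1-naphthyl)ethylenediamine 1 rose and 1 fell, and with pentachloronitrobenzene 1 rose. List medians were 0.143, -0.203, -0.0146 and -0.0342 in that order. Centred, 4, 4, 2 and 1 were lower and 1, 1, 1 and 0 higher. Of all tested genes 31.5%, 24.8%, 24.7% and 14.6% were called higher and 8.41%, 7.58%, 4.37% and 3.87% lower in the same order. Centring made these shares 9.22%, 11.2%, 5.49% and 2.56% higher and 24.9%, 21.5%, 15.1% and 13.4% lower.

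P450 enzymes need electrons and heme. Of 4 tested genes that carry electrons or assist the microsomal P450, all 4 rose with 1,5-naphthalenediamine, where 31.5% of all genes did. Centred, 2 rose, against 9.22% of all genes. Cyb5b changed by 0.506 ± 0.108 (adjusted p = 0.000239) and was not called with the most variable probe set (0.213, adjusted p = 0.0905). For Cyb5r3 the probe sets disagreed: the change was 0.436 ± 0.0831 on the brightest (adjusted p = 7.05e-05), 0.00890 on the most variable (adjusted p = 0.396) and -0.571, called lower, when probe sets of shared sequence were left out (adjusted p = 0.00936). With 2,3-benzofuran 1 rose, and 2 rose with each of the other chemicals, where centring left 1, 1 and 0. In these comparisons 24.8%, 24.7% and 14.6% of all tested genes were called higher, or 11.2%, 5.49% and 2.56% when centred. Cyb5r3 was also called higher in corn oil than in feed controls (0.399 ± 0.0831, adjusted p = 0.0410), a call lost without corn oil control 24 or 25 or feed control 28 or 29. Among 9 tested genes of heme synthesis and breakdown 4 rose with 1,5-naphthalenediamine, 4 with 2,3-benzofuran, 4 with N-(1-naphthyl)ethylenediamine and 1 with pentachloronitrobenzene (centred 2, 3, 0 and 0 higher, with 1 lower for 2,3-benzofuran). Shares of all tested genes called higher were 31.5%, 24.8%, 24.7% and 14.6% in the same order. When centred they were 9.22%, 11.2%, 5.49% and 2.56%, and 21.5% of all tested genes were lower with 2,3-benzofuran. Blvrb, a biliverdin reductase, rose by 0.825 ± 0.115 with 1,5-naphthalenediamine and 1.30 ± 0.115 with 2,3-benzofuran (adjusted p = 1.48e-05 and 1.79e-07). Alas1, the rate-limiting enzyme of heme synthesis, rose by 1.53 ± 0.352 with 2,3-benzofuran (adjusted p = 0.00222), a call lost with the clock gene index (0.977, adjusted p = 0.0810) and without the 5 arrays highest in 18S signal (1.11, adjusted p = 0.140). It rose by 0.911 ± 0.352 with N-(1-naphthyl)ethylenediamine (adjusted p = 0.0314, and 0.0865 when centred), a call lost without exposed animal 12 or feed control 29. That call was kept in 9 of 18 other settings. Those that lost it included the RNA integrity, beta-actin and 18S covariates, quantile normalization and array weights. The Alas1 change with 1,5-naphthalenediamine, 0.521 ± 0.352, was not called (adjusted p = 0.119).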

How the data were processed

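Liver RNA of 18 animals was measured on Affymetrix mouse whole-genome arrays. Per the labels' protocols, tissue was kept in a preservative and RNA was isolated with Trizol and RNeasy. The deposited table holds log2 signals computed by the authors; how they corrected background, normalized and summarized probes is not given in the sources used here. No detection calls were used. Signal over background and 3 arrays per group limit the precision.

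Probe sets with 1 annotated gene numbered 34945, with several 932 and with none 9160, beside 64 controls; symbols were updated by Entrez identifier. Probe sets above their array's median in at least 3 arrays were kept (24396), and the brightest per gene gave 12169 genes. Using limma 3.58.1 (R 4.3.3), a model of 6 group means over the 18 arrays was estimated (trend, empirical Bayes, 12 residual degrees of freedom), with Benjamini-Hochberg adjustment over all genes of a comparison. The fit was tested on simulated data. Figures used matplotlib 3.10.9 in Python 3.11.15.

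Named were the 5 members with all their probe sets, the 5 genes most like Cyp1a1 and like Cyp1a2, and from each pathway list up to 3 called genes with the largest t statistics plus 7 fixed genes. From these, examples were picked after their values were seen. Hsp90aa1, Glul, Rhbg, Cyp2e1, Alas1 with the naphthalene compounds and Clock were likewise added after their values were seen. Members, lists and alternatives were chosen with earlier results of these data known. Alternatives covered scaling, filters, the probe set per gene, moderation, array weights, covariates, pooled controls, thresholds and leaving out arrays.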

Additional observations from a re-analysis of the deposited data

Results flagged for a closer look

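The 18S ribosomal RNA control probe set, which is outside the gene comparisons, was at most 6.67 in the control arrays and stood out in 5 exposed animals. Its log2 signal was 11.6 and 10.3 in N-(1-naphthyl)ethylenediamine animals 14 and 12, 11 and 7.93 in 2,3-benzofuran animals 6 and 10, and 9.97 in 1,5-naphthalenediamine animal 4. N-(1-naphthyl)ethylenediamine animal 15, at 6.97, also lay above the controls and was kept when these 5 were left out. Without these 5 arrays Cyp1a2 remained called with the 3 feed chemicals, and Tiparp was not called with N-(1-naphthyl)ethylenediamine.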

How the results depend on the processing

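No paired analysis was possible because the animal numbers in the labels differ between all groups. Cyp1a1 with 1,5-naphthalenediamine kept its call in all 18 alternatives that could test it (2.83 to 3.19) and without any 1 array (2.71 to 3.61); the filter at the 75th percentile leaves it untested. Cyp1a2 kept its calls with the feed chemicals in all 19 alternatives, at 1.23 to 1.54 with 1,5-naphthalenediamine, 0.853 to 1.36 with N-(1-naphthyl)ethylenediamine and 0.760 to 0.966 with pentachloronitrobenzene. With 2,3-benzofuran it was called at 0.339 with the clock gene index as covariate.

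Counts of called members changed as follows. The 75th percentile filter gave 1 for 1,5-naphthalenediamine, 0 for its difference from N-(1-naphthyl)ethylenediamine, 1 for that from pentachloronitrobenzene and 1 for 2,3-benzofuran's effect against it, since Cyp1a1 dropped out. For 1,5-naphthalenediamine the count was 3, with Tiparp, for the most variable probe set, without probe sets of shared sequence, or without animal 2. For 2,3-benzofuran the count was 1 with hepatocyte centring, array weights, the clock index, only the compared groups, or pooled controls. With N-(1-naphthyl)ethylenediamine and the clock index it stayed 2, with Ahr called (0.595) and Tiparp not. For N-(1-naphthyl)ethylenediamine it was 1 with RNA integrity, beta-actin or 18S covariates, or without the 5 arrays highest in 18S. For pentachloronitrobenzene it was 1 after quantile normalization, centring, averaging probe sets, with only the compared groups, or at adjusted p under 0.01, and 1 to 2 without 1 array. Between the naphthalene compounds it was 2 with the clock index and 1 to 2 without 1 array. Between 1,5-naphthalenediamine and pentachloronitrobenzene it was 1 with only the compared groups, without the 18S arrays or at 0.01, and 1 to 2 without 1 array. Between N-(1-naphthyl)ethylenediamine and pentachloronitrobenzene it was 1 after quantile normalization or centring, 2 with array weights or only the compared groups, and 0 to 1 without 1 array. The 2,3-benzofuran effect against N-(1-naphthyl)ethylenediamine had 1 with hepatocyte centring, the most variable probe set, averaged probe sets, beta-actin, pooled controls, without the 18S arrays or at 0.01, 0 with RNA integrity or the clock index, and 1 to 2 without 1 array. Against pentachloronitrobenzene it was 0 with hepatocyte centring, RNA integrity or without the 18S arrays. The causes were not tested. Leaving out the 18S arrays left 1 animal each for 2,3-benzofuran and N-(1-naphthyl)ethylenediamine, assumed to vary like the other groups. Total calls also moved by over 1.5 times. With 1,5-naphthalenediamine 4859 became 2962 after quantile normalization, 2752 with only the compared groups, 2772 without the 18S arrays and 2587 at 0.01. With 2,3-benzofuran 3936 became 1644 with the clock index, 886 without the 18S arrays and 2030 at 0.01. With N-(1-naphthyl)ethylenediamine 3536 became 352 with RNA integrity, 44 with beta-actin, 1205 with 18S and 1608 with the clock index as covariate, 1756 after quantile normalization, 1378 with hepatocyte centring, 2224 with array weights, 1490 with only the compared groups, 529 without the 18S arrays and 1373 at 0.01. With pentachloronitrobenzene 2249 became 893 after quantile normalization, 1030 with hepatocyte centring, 400 with only the compared groups and 435 at 0.01. Between the controls 15 became 4 to 16. None of the called member changes reversed under these alternatives.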
